A study of Mus musculus with 9 samples.

Results

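The RNAs described here are 7 long noncoding RNA genes of the mouse brain, Malat1, Neat1, Meg3, Rian, Mirg, Miat and Snhg11, whose transcripts are known from other work to stay largely in the nucleus. They were taken by name from a list, and all 7 were found among the 37620 gene identifiers of the deposited count tables and were tested. The RNA came from adult PV-Cre;Rpl22HA mice, in which Cre driven from the parvalbumin gene turns on an HA-tagged ribosomal protein in parvalbumin interneurons (PV INs). Ribosomes and the RNA bound to them were pulled down with HA beads from dissected CA3/CA2 hippocampus. Lentivirus that expressed either a non-target shRNA (shNT, 5 samples) or an shRNA against Ablim3 (shRNA, 4 samples) had been injected into the dentate gyrus (DG) of 2-month-old mice 2 weeks before. The shNT mice carried the same alleles and also received virus, so no sample came from an uninjected brain. Each sample pooled tissue from 6 mice, males and females together. No fractionated RNA and no input RNA from before the pull-down was analysed here, so where in the cell these transcripts lay was not measured.

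Malat1 collects in nuclear speckles, which store splicing factors, and Neat1 is the scaffold on which paraspeckles form. Meg3, Rian and Mirg are made from the maternal chromosome across the imprinted Dlk1-Dio3 domain. Rian hosts small nucleolar RNAs, and Mirg hosts a cluster of microRNAs. Miat forms its own nuclear foci in neurons and carries repeats of a splicing branch-point sequence. Snhg11 is a small nucleolar RNA host gene abundant in neurons. Ribosomes work in the cytoplasm, so RNAs of this kind are not ordinary cargo of a ribosome pull-down. Their levels were therefore set against a second quantity of each library, the share of uniquely aligned reads that fell outside annotated exons. That share counts reads from introns, intergenic sequence and unannotated exons together.

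In the mm9 genome, Malat1 lies on the minus strand at chr19:5795690-5802671 and is a single exon of 6982 bases. Neat1 lies beside it on the same strand at chr19:5824708-5845478, also as a single exon, of 20771 bases. A single exon block is found in 4.77% of the tested genes with exon coordinates. Since Neat1 was counted as 1 gene, its short and long transcripts could not be told apart. The annotated 3′ part of both genes holds the U-rich and A-rich elements from which a stabilising RNA triple helix is known to form in place of a poly(A) tail. They are shown because both genes share them and because they end in an A-rich tract written in the genome. Each stretch is 120 bases, 5′ to 3′ on the transcribed strand, ending at the A-rich tract that closes the annotated Neat1 gene, and capitals mark the runs of 10 or more bases that both stretches hold.
Malat1, chr19:5795982-5796101, minus strand: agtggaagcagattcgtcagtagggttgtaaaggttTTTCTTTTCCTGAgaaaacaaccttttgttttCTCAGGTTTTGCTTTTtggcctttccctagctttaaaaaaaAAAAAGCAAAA
Neat1, chr19:5824708-5824827, minus strand: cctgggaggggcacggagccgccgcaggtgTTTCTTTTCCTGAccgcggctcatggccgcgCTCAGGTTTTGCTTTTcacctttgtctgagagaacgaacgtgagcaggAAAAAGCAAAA
Searched on the sense strand of the exons of 15047 tested genes, TTTCTTTTCCTGA occurred in 10 genes, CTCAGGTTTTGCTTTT in 2 and AAAAAGCAAAA in 175. Malat1 and Neat1 were the 2 genes, or 0.0133%, that held all of them.

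Miat, at chr5:112642248-112657968 on the minus strand, has 7 exon blocks of 8760 bases in all. Its exons hold 6 copies of TACTAAC, the letters of the splicing branch point. At least 1 copy was found in 8.69% of 15047 tested genes, and 6 or more copies were found in 2 genes, Gfap and Miat. The repeats are shown because repeated copies set Miat apart from the other RNAs described here, with the copies in capitals.
Miat, chr5:112646329-112646380, minus strand: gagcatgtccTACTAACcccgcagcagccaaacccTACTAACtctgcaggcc
Miat, chr5:112645772-112645832, minus strand: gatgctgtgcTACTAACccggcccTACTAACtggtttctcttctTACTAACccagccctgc

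The imprinted RNAs lie in order along the plus strand of chromosome 12. Meg3 is at chr12:110779211-110809936 with 8 exon blocks, Rian is at chr12:110842155-110899919 with 22, and Mirg is at chr12:110973191-110987665 with 9. Hairpin sequences of microRNAs from RefSeq, matched by sequence, lie at 1 place in Meg3, 3 in Rian and 10 in Mirg, of which 1, 0 and 4 overlap an exon. Snhg11 is at chr2:158201374-158211881 on the plus strand with 4 exon blocks, and this annotation lists it as protein-coding. Counting was without regard to strand, and other annotated genes cover 7.75% of the exon length of Meg3, 6.09% of that of Malat1, 5.10% of that of Mirg, 1.78% of that of Rian and 1.56% of that of Snhg11. In Malat1 all of that overlap, and in Meg3 part of it, is an antisense gene. Reads that fit more than 1 gene were tallied as ambiguous and were not counted for any gene.

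Between 18281719 and 34578837 reads per library were assigned to genes. Ablim3 itself, which the virus targets in DG cells and not in the sampled PV INs, did not pass the test (log2 fold change 0.13 ± 0.23 SE, adjusted p = 0.701). Pvalb, which defines the sampled cells, was present in all libraries, at 678 to 1375 CPM in shNT and 310 to 705 CPM in shRNA. CPM values given here are counts scaled to the library total multiplied by its TMM normalization factor. That factor ran from 0.923 in shNT replicate 5 to 1.21 in shRNA replicate 4, and was 1.11 in shNT replicate 2. The share of reads outside exons set 3 libraries apart from the rest. It was 11.0, 18.6, 9.76, 9.91 and 11.3% in shNT replicates 1 to 5, and 19.8, 12.5, 12.4 and 27.2% in shRNA replicates 1 to 4. Thus shNT replicate 2 and shRNA replicates 1 and 4 were at 18.6% or above, and the other 6 libraries were at 12.5% or below. The group means were 12.1% ± 3.67 (SD, n = 5) in shNT and 18.0% ± 7.07 (SD, n = 4) in shRNA. Their difference of 5.89 percentage points did not pass an exact two-sided permutation test over libraries (p = 0.151, where the smallest possible is 0.00794).

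Malat1, the most abundant of the 7, was at 2030, 12171, 993, 1649 and 2012 CPM in shNT replicates 1 to 5. In shRNA replicates 1 to 4 it was at 10263, 2654, 2415 and 12721 CPM. All 3 libraries with a high share of reads outside exons were at 10263 CPM or above, and the other 6 were at or below 2654 CPM. Libraries of both groups were found at each level, and the groups overlapped.

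Neat1 was measured at 48.9, 134, 16.0, 25.2 and 18.4 CPM in shNT. The shRNA libraries held 88.0, 41.3, 47.6 and 205 CPM. Here shNT replicate 1 was above shRNA replicates 2 and 3, so the groups overlapped even without shNT replicate 2. The ratio of Neat1 to Malat1 counts, which does not depend on library scaling, ran from 0.857 to 2.41% and did not separate the groups (exact two-sided permutation p = 0.984, n = 5 and 4).

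Meg3, the RNA of the maternal Dlk1-Dio3 domain nearest to Dlk1, was at 436, 1553, 317, 480 and 455 CPM in shNT. It was at 1487, 520, 492 and 3276 CPM in shRNA. The same 3 libraries were high, and shRNA replicate 4 stood well above shNT replicate 2, the next highest. Rian, which hosts small nucleolar RNAs, moved least. Its levels were 16.7, 28.5, 11.9, 11.8 and 12.5 CPM in shNT and 30.4, 18.9, 22.1 and 32.6 CPM in shRNA, so the highest library was 2.76 times the lowest, beside 8.26 to 12.8 times for the other 6 RNAs. Mirg, the microRNA host at the far end of the domain, was scarce. It was at 1.42, 8.12, 1.17, 1.66 and 2.01 CPM in shNT and at 5.75, 1.63, 2.22 and 11.5 CPM in shRNA. These levels rest on 33 to 254 reads per library, the fewest of the 7.

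Miat stood at 30.6, 96.7, 21.99, 22.1 and 23.7 CPM in shNT and 167, 38.7, 43.0 and 195 CPM in shRNA. Both high shRNA libraries were above shNT replicate 2, and the 2 lower shRNA libraries were above the other 4 shNT libraries. For Snhg11 the levels were 464, 1060, 312, 443 and 386 CPM in shNT and 1617, 595, 623 and 2579 CPM in shRNA. It ordered the libraries in the same way as Miat at this coarse level, with shNT replicate 2 between the lower and the higher pair of shRNA libraries.

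**Figure D1:**
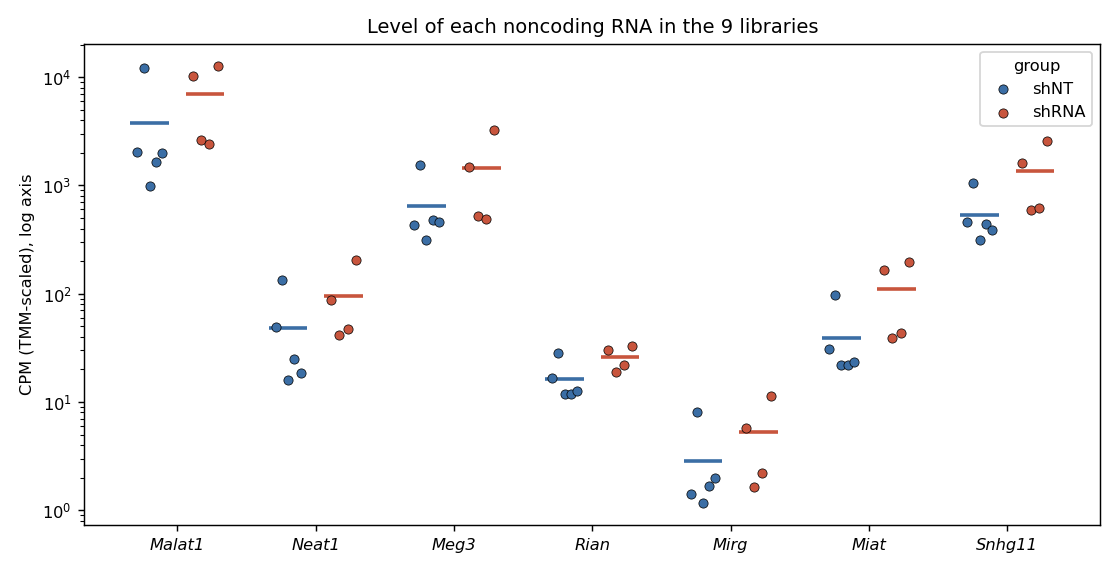
Level of each RNA in every library as TMM-scaled CPM on a log axis, with shNT in blue (5 libraries) and shRNA in red (4 libraries), points in replicate order from left to right within a group and bars at the arithmetic mean. For each RNA, 1 shNT library (replicate 2) and 2 shRNA libraries (replicates 1 and 4) sit above the rest of their group.

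Per length of exon the RNAs spanned a wide range. On the RPKM scale (CPM per kilobase of exon) the mean in shNT was 540 for Malat1, 62.6 for Snhg11, 35.8 for Meg3, 4.45 for Miat, 2.33 for Neat1, 1.99 for Rian and 0.906 for Mirg. Malat1 was at the 99.4th percentile of tested genes on that scale, Snhg11 at the 92.4th and Meg3 at the 86.8th. Miat was at the 49.1st percentile, Neat1 at the 37.0th, Rian at the 34.4th and Mirg at the 22.1st. The shNT standard deviations were 675 RPKM for Malat1 and 2.38 RPKM for Neat1, larger than their means, since shNT replicate 2 stood so far above the others. Set against the larger shNT standard deviation of each neighbouring pair in this order, Meg3 and Miat, and Rian and Mirg, lay farther apart than that spread, and the other neighbours lay closer. That spread is between libraries, over which the RNAs moved together. Within each shNT library the order of the means held for every neighbouring pair except Neat1 and Rian. Neat1 was above Rian in shNT replicates 1 and 2 and below it in replicates 3, 4 and 5.

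Together the 7 RNAs took 0.160 to 0.369% of gene-assigned reads in the 6 libraries with a low share of reads outside exons. They took 1.35% in shRNA replicate 1, 1.67% in shNT replicate 2 and 2.31% in shRNA replicate 4. Malat1 alone made up 59.4 to 80.9% of those reads. Among shNT libraries, replicate 2 was the highest for 7 of 7 RNAs, where 25.1% of all tested genes had that library on top. All 7 RNAs were highest in shRNA replicate 4, though how many of all tested genes were highest there was not counted. Over the 9 libraries the 21 pairwise correlations of log2 CPM among the 7 ran from 0.87 to 0.98 with a median of 0.93, a description in which the points share their libraries and depth.

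The first comparison asked whether these RNAs differed between shRNA and shNT, in a fit of condition alone by the quasi-likelihood test of edgeR, adjusted over all 15069 genes tested. None of the 7 was called at an adjusted p under 0.05 and at least 1.5-fold, where 264 of 15069 genes, or 1.75%, were called. All 7 estimates were above 0. The log2 fold change was 0.90 ± 0.75 (SE) for Malat1 (adjusted p = 0.405), 0.98 ± 0.65 for Neat1 (adjusted p = 0.298) and 1.16 ± 0.61 for Meg3 (adjusted p = 0.199). For Mirg it was 0.88 ± 0.68 (adjusted p = 0.364). The estimates for Rian, 0.68 ± 0.28 (adjusted p = 0.121), Miat, 1.51 ± 0.59 (adjusted p = 0.103), and Snhg11, 1.34 ± 0.48 (adjusted p = 0.0882), had unadjusted p of 0.0350, 0.0250 and 0.0166.

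Other tests of the same counts called some of the RNAs. The likelihood ratio test called Miat (adjusted p = 0.0482) and Snhg11 (adjusted p = 0.0343), among 14.8% of all genes. The exact test of edgeR called Snhg11 (adjusted p = 0.0355), among 14.5%. The limma voom test with sample weights called Rian (adjusted p = 0.00848), among 19.4%, and DESeq2 called none of the 7, with 15.7% of all genes called. Without shNT replicate 2, Rian (adjusted p = 0.0453) and Miat (adjusted p = 0.0488) were called, among 3.22% of all genes. The remaining shNT libraries had 9.76 to 11.3% of reads outside exons, and the shRNA libraries had 12.4 to 27.2%. Condition and share can therefore not be told apart without shNT replicate 2. In that subset every shRNA library lay above every remaining shNT library for 5 of the 7 RNAs, those other than Neat1 and Mirg, which held for 13.5% of all genes. With shNT replicate 2 included this held for 0 of the 7 and for 8.97% of all genes.

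The second comparison asked how each RNA moved with the share of reads outside exons, over the same 9 libraries without regard to condition. All 7 rose with it. The slope, in log2 CPM for each 10 percentage points of share, was 2.30 ± 0.31 (SE) for Malat1 (adjusted p = 0.00113), 2.08 ± 0.21 for Miat (adjusted p = 3.87e-04) and 1.96 ± 0.23 for Mirg (adjusted p = 6.03e-04). It was 1.88 ± 0.13 for Meg3, whose p was the second lowest of all genes tested (adjusted p = 1.26e-04). Neat1 had a slope of 1.87 ± 0.28 (adjusted p = 0.00143), Snhg11 of 1.67 ± 0.14 (adjusted p = 2.23e-04) and Rian of 0.87 ± 0.17 (adjusted p = 0.00437). The share moved with a large part of the transcriptome, since 37.8% of the 15069 genes were called in either direction and 23.3% rose.

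Ranked by slope, Malat1 was 42nd of the 15069 genes, Miat 101st, Mirg 149th, Meg3 188th, Neat1 192nd and Snhg11 362nd, while Rian was 2541st. The median slope of all genes was 0.0060. With condition as a second term all 7 were still called, with slopes from 0.75 for Rian to 2.39 for Malat1, where 17.8% of all genes rose. All 7 also passed in each fit that left out 1 library, where 5.89% (without shRNA replicate 4) to 43.0% (without shNT replicate 2) of all genes were called.

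**Figure D2:**
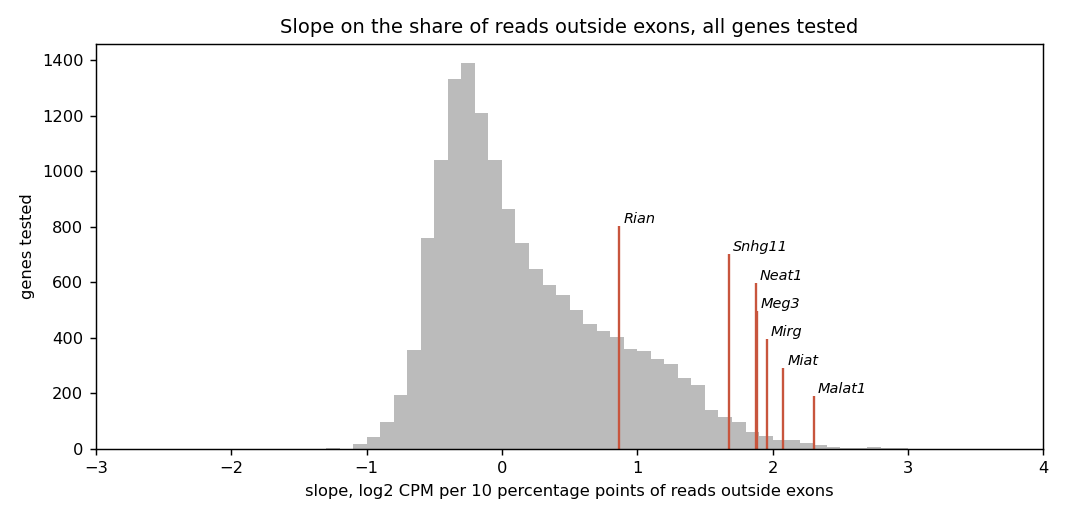
Histogram of the slopes of all 15069 tested genes, in log2 CPM for each 10 percentage points of reads outside exons, with a red line at each of the 7 RNAs (the height of a line has no meaning). Rian stands at 0.87 and the other 6 between 1.67 and 2.30, in the upper tail.

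The calls on these slopes rest on the 3 libraries with a high share. In the 6 libraries at 12.5% or below, a choice made after the data were seen, none of the 7 RNAs and 0.0% of the 13983 genes tested were called in the quasi-likelihood fit, and 1296 genes had an unadjusted p under 0.05. The 7 slopes in those libraries were all above 0, from 1.34 for Meg3 to 3.83 for Neat1 (adjusted p = 0.365 to 0.697). Within them Pearson's r of log2 CPM with the share ran from 0.65 for Mirg to 0.90 for Miat, while the median over all genes was 0.064. For Malat1 r was 0.88 and Spearman's rho 0.94 (exact permutation over 720 pairings, p = 0.00417 and 0.0167). Adjusted over all genes these exact permutation p were 0.672 for r and 0.723 for rho in each of the 7 RNAs. Leaving out the libraries with the lowest and the highest share of the 6, shNT replicate 3 and shRNA replicate 2, r was 0.99 for Malat1 and 0.23 for Meg3. The shares of these 6 libraries span few percentage points, and both shRNA libraries among them are at the upper end, so share and condition cannot be told apart there. Without shNT replicate 2 and shRNA replicate 4, Neat1 (adjusted p = 0.104) and Rian (adjusted p = 0.0541) were not called and the other 5 were, where 2.68% of all genes rose. That fit kept only shRNA replicate 1, at 19.8%, as a library with a high share, so its calls rest on that library.

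**Figure D3:**
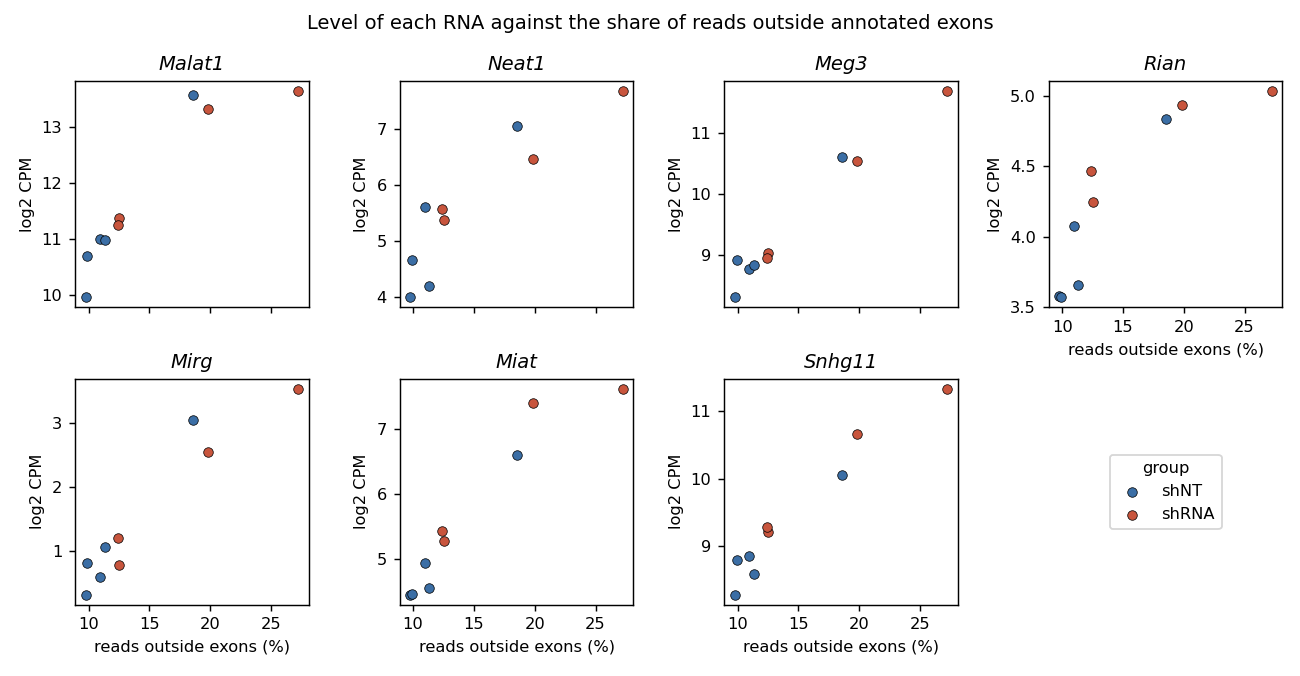
Level of each RNA (log2 CPM, vertical axes) against the share of uniquely aligned reads outside annotated exons (percent, horizontal axes), 1 panel per RNA, with a point per library, shNT in blue and shRNA in red. The 3 libraries at 18.6 to 27.2% are the highest 3 in every panel, and the other 6 lie close together at 9.76 to 12.5%.

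When condition and share were fitted together, the estimates for condition were small. They were -0.23 ± 0.35 (SE) for Malat1, -0.08 ± 0.35 for Neat1, -0.22 ± 0.17 for Meg3 and -0.43 ± 0.28 for Mirg on the log2 scale. Rian, Miat and Snhg11 stayed above 0, at 0.27 ± 0.20, 0.33 ± 0.25 and 0.30 ± 0.17. Adjusted p ran from 0.246 to 0.896, and none of the 7 was called. In this fit 0.0% of all genes were called by the quasi-likelihood test, although 4479 had an unadjusted p under 0.05, and the likelihood ratio test called 9.06%. In the 6 libraries with a low share, 4 shNT and 2 shRNA, the log2 fold changes of the 7 were 0.23 to 0.70 (adjusted p = 0.134 to 0.621), and 0.0% of all genes were called, with 3118 at an unadjusted p under 0.05.

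**Figure D4:**
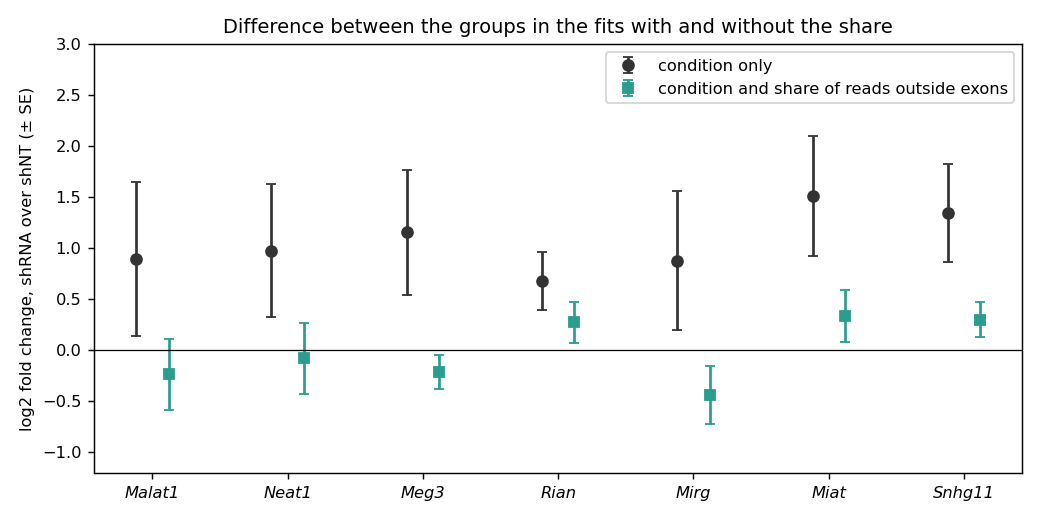
Log2 fold change of shRNA over shNT for each RNA, with standard errors, from the fit with condition alone (black circles) and from the fit that also has the share of reads outside exons (green squares). The 7 black circles lie between 0.68 and 1.51, and the green squares between -0.43 and 0.33.

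The imprinted RNAs of chromosome 12 did not keep a fixed ratio. In the 6 libraries with a low share of reads outside exons, Rian counts were 2.46 to 4.48% of Meg3 counts, and in the 3 libraries with a high share they were 0.995 to 2.05%. The log2 ratio fell by 1.02 for each 10 percentage points of share (exact two-sided permutation over pairings, p = 0.00432, adjusted p = 0.0130 over 3 ratios). In the 6 low-share libraries alone its slope was 1.34, in the opposite direction and not past the test (exact permutation p = 0.339), so this fall rests on the contrast between the 6 and the 3. Mirg counts were 0.314 to 0.523% of Meg3 counts, with a slope of 0.049 on the log2 scale (exact permutation p = 0.752). The difference between shRNA and shNT passed for neither ratio (exact permutation over libraries, p = 0.659 for both).

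Other RNAs that share places or partners with these 7 were then listed, from gene lists drawn up with earlier results of these data known. Among all genes tested, 23.3% rose with the share and 14.4% fell. Of 14 other nuclear noncoding RNAs tested, 5 (35.7%) rose and 1 fell with the share, with a median slope of 0.50. Rmst rose (slope 2.30 ± 0.35 SE, adjusted p = 0.00150), as did the transcript 6720401G13Rik, also known as Firre (1.81 ± 0.20, adjusted p = 4.73e-04), and Dlx6os1 fell by 0.52 ± 0.13 (adjusted p = 0.0109). Of 10 mostly cytoplasmic noncoding RNAs, 4 (40.0%) rose and none fell, with a median slope of 0.39, among them Snhg5 (1.38 ± 0.23, adjusted p = 0.00226). Of the 510 genes annotated as lincRNA, 44.1% rose and 1.76% fell, with a median slope of 0.54, beside 22.2 and 15.2% of the 13997 protein-coding genes. No RNA on the nuclear and cytoplasmic lists was called between shRNA and shNT by the quasi-likelihood test, where 1.75% of all genes were called. With 14 and 10 RNAs tested, none called is close to that share.

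Nuclear speckle proteins, the partners of Malat1, included 13 of 20 (65.0%) that rose with the share and none that fell, with a median slope of 0.48, where 23.3% of all genes rose and 14.4% fell. Srsf2, a splicing factor of the SR family, had a slope of 1.59 ± 0.18 (adjusted p = 5.19e-04), and Clk1, a kinase that phosphorylates such factors, one of 1.34 ± 0.26 (adjusted p = 0.00370). Clk1 and its relative Clk4 were the 2 of 20 called between the groups by the quasi-likelihood test, at log2 fold changes of 1.45 ± 0.32 (adjusted p = 0.0497) and 1.14 ± 0.24 (adjusted p = 0.0433), where 1.75% of all genes were called. Both lie close to the threshold, and 0 genes were called by that test with the share as a second term, within shNT 1 to 3 and shRNA 1 to 3, or without any 1 of shNT replicates 3, 4 and 5 and shRNA replicates 1 and 3. Paraspeckle proteins, the partners of Neat1, moved both ways, with 4 of 16 (25.0%) rising, close to the share of all genes, and 5 (31.2%) falling, and a median slope of -0.017. Taf15 rose (0.87 ± 0.23, adjusted p = 0.0156) and Nudt21 fell by 0.50 ± 0.17 (adjusted p = 0.0398). Of 5 proteins reported to bind Miat or its repeats, 3 rose, among them Qk (0.95 ± 0.17, adjusted p = 0.00298), while Sf1, the branch-point binding protein, had a slope of -0.25 ± 0.10 (adjusted p = 0.0796).

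Protein-coding genes near these loci moved both ways, where 23.3% of all genes rose. In and beside the Dlk1-Dio3 domain 1 of 7 genes (14.3%) rose and 1 fell, beside 14.4% of all genes that fell, with a median slope of -0.10. The gene that rose was Rtl1 (1.43 ± 0.40, adjusted p = 0.0185), which is encoded opposite to noncoding transcripts of the domain and was counted without strand, and the one that fell was Wars. Around Malat1 and Neat1, 2 of 7 tested neighbours (28.6%) rose, Slc25a45 (1.11 ± 0.28, adjusted p = 0.0114) and Frmd8 (0.41 ± 0.12, adjusted p = 0.0265). Of the same 7 neighbours 1 (14.3%) fell, and their median slope was -0.059.

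Markers of some other cell types moved with the same share and those of others largely did not. Of 14 astrocyte markers 12 rose with it, of 11 endothelial markers 10 rose, and of 12 oligodendrocyte markers 8 rose, none falling, where 23.3% of all genes rose and 14.4% fell. Of 10 markers of granule cells of the dentate gyrus 4 rose and 1 fell, and of 8 markers of oligodendrocyte precursors 1 rose and 1 fell. Of 11 CA3/CA2 pyramidal markers 1 rose, of 11 microglial markers 1 rose and of 9 markers of other interneurons 0 rose, and none of these fell. Of 16 PV interneuron markers 12 fell and none rose, where 14.4% of all genes fell. Between shRNA and shNT the quasi-likelihood test called 3 of 8 precursor, 2 of 10 granule cell, 2 of 11 pyramidal and 2 of 9 other interneuron markers, all higher in shRNA, and none in the astrocyte, endothelial, oligodendrocyte, microglial and PV interneuron lists, beside 1.75% of all genes. The mean log2 level of the astrocyte list, set to 0 at the shNT mean, was 2.36 in shRNA replicate 4 and between -0.23 and 0.63 in the other 8 libraries. It was -0.02 in shNT replicate 2, where the 7 RNAs were also high. The endothelial list was at 2.27 in shRNA replicate 4, 0.72 in shNT replicate 2, -0.74 to 0.69 in the other shNT libraries and -1.42 to -0.50 in the other shRNA libraries, so shNT replicate 2 did not stand apart from its group. The oligodendrocyte list was at 0.78 in shNT replicate 2 and at -0.42 to 0.01 in the other shNT libraries. In shRNA that list was at 1.11 in replicate 4 and at 0.45 to 1.05 in the other libraries. The PV interneuron list was lowest in shRNA replicate 4 (-1.16), followed by shNT replicate 2 (-0.44). No marker of the astrocyte, endothelial, oligodendrocyte and PV interneuron lists was at 0 in any library, and the part of other cell types in the levels of the 7 RNAs was not tested. In these bulk samples, more cells of a type and more RNA per cell cannot be told apart.

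The sample names fall into sets, with shNT 1 to 3 and shRNA 1 to 3 in one and the remaining 3 samples in the other, and no label says what they stand for. Within the set of 6, all 7 slopes on the share were above 0 and 5 of the 7 RNAs were called, where 1.89% of all genes rose. Neat1 (adjusted p = 0.0569) and Rian (adjusted p = 0.0509) were not called. The set of 3 was too small for a fit of its own.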

How the data were processed

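Ribosome-associated RNA was sequenced from 5 shNT and 4 shRNA samples, each a pool of 6 mice. Libraries were made with an oligo-dT primed SMARTer v4 kit. The authors aligned 50-base reads to mm9 with STAR, ran HTSeq 0.6.0 on unique alignments without strand, and deposited raw counts per gene with tallies of reads outside exons, ambiguous reads and multiple alignments. Priming at A-rich sequence inside transcripts can add reads. Gene names and positions came from GENCODE for the same build, which named 37205 of 37620 identifiers; the version used by the authors is not given in the sources used here.

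A gene needed 1 CPM or more in any sample (15069 genes). Counts were TMM-normalized and tested with edgeR 4.0.16 (quasi-likelihood) in R 4.3.3, with condition, with the share of reads outside exons (of gene, outside-exon and ambiguous reads), and with both. Calls needed a Benjamini-Hochberg adjusted p under 0.05 and, for condition, 1.5-fold. Log2 CPM used a prior count of 2. Exact permutation p counted statistics at least as large in absolute size. A correlation planned over all 9 libraries is not given because the shares fall into 2 clusters; it is given within the 6 low-share libraries. On simulated counts with 200 genes changed 2-fold, the condition fit recovered 97 and called 11 of 14409 unchanged genes, and the share fit recovered 135 and called 9 of 14406 (2-fold for each 10 points). The changed genes had a mean of at least 2 CPM, and each gene was drawn independently. In the data many genes moved together with the share, so the simulated false calls do not measure those in the data. Alternatives included DESeq2 1.42.0 and limma 3.58.1.

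All 7 RNAs are named. From each further list, the 2 largest and 2 smallest fold changes between groups may be named; Clk4, Rtl1, Wars and Gfap were named after their values were seen. The value of 1 listed gene is not reported here. For each RNA, the 3 genes of mean at least 10 CPM with the highest r are given as most like it. The members and lists were chosen with earlier results of these data known. Replicate numbers did not pair samples. Samples were separate pools, so p-values measure the spread between pools. Counting error is small at these depths except for Mirg.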

Additional observations from a re-analysis of the deposited data

Results flagged for a closer look

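Of 26 groups of values checked (levels of the 7 RNAs and library measures in each group), 6 had a library farther from the others than Dixon's 95% limit allows, where chance gives about 1 in 20. The groups are not independent, since the 7 RNAs moved together over the libraries, so 6 of 26 cannot be read against that rate. In shNT, replicate 2 stood above the other 4 libraries in log2 CPM for Malat1 (13.57, next highest 10.99), Meg3 (10.60, next 8.91), Mirg (3.04, next 1.06) and Miat (6.60, next 4.94). The same library had the highest share of reads outside exons in its group (18.6%, next 11.3%). In shRNA, replicate 4 had the lowest share of reads aligned at more than 1 place (8.24%, next 10.6%).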

How the results depend on the processing

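The 7 RNAs were called against the share in 5 to 7 cases under 18 of 19 alternatives, the exception being the 6 low-share libraries (0 of 7; 0 of all genes). Against the share, all genes called were 5689, and 382 without both shNT 2 and shRNA 4, 340 in the name set of 6, and 855 (without shRNA 4) to 6443 leaving out 1 library. With library size only, the median slope of all genes moved from 0.0060 to 0.20 and 4864 of 5660 called genes rose, beside 3515 of 5689 with TMM, and 7 of the 7 RNAs were called. Between groups, 0 of 7 were called, but 2 by the likelihood ratio test, 1 by the exact test, 1 by limma voom, 2 without both shNT 2 and shRNA 4, and 0 to 2 leaving out 1 library (2 without shNT 2). All genes called between groups numbered 264 (262 higher), 2230 (1688 higher) by the likelihood ratio test, 2189 by the exact test, 2363 (1519 higher) by DESeq2, 2919 by limma voom, 0 with library size only, upper quartile scaling, edgeR's own filter, the name set of 6, the share as a second term or the low-share libraries, 1133 (512 higher) scaled to all uniquely aligned reads, 515 without filter, 680 without both shNT 2 and shRNA 4, 1366 by the likelihood ratio test with the share, and 0 to 1417 leaving out 1 library (1417 without shNT 1; 482 without shNT 2; 142 without shRNA 4; 0 without shNT 3, 4 or 5 or shRNA 1 or 3). Where the quasi-likelihood test called 0 genes between groups, 1493 (name set of 6) to 5360 (upper quartile) had an unadjusted p under 0.05.

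With the share as a second term the sign turned for Malat1 (-0.23 by both tests), Neat1 (-0.078, and -0.073 by the likelihood ratio test), Meg3 (-0.22 by both) and Mirg (-0.43 and -0.44). In the name set of 6 it turned for Malat1 (-0.063), Neat1 (-0.23) and Mirg (-0.20). The difference in share between groups was 2.81 to 7.75 points leaving out 1 library, and passed without shNT 2 (7.50), shRNA 2 (7.71) or shRNA 3 (7.75). Leaving out 1 library, the log2 ratio differences ranged from -0.53 to 0.19 for Rian/Meg3, -0.18 to 0.014 for Mirg/Meg3 and -0.16 to 0.25 for Neat1/Malat1. With 0.5 CPM added they were -0.25, -0.22 and -0.010. Same-numbered replicates did not deviate together (correlations -0.64 to 0.49). With the replicate number as a block (replicates 1 to 4), 34 genes and 0 of the 7 were called, and 0 genes without the block. The causes of these shifts were not tested.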

Other observations

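Among 9495 other genes of at least 10 mean CPM, those whose log2 CPM followed each RNA most closely over the 9 libraries were as follows, as a description over libraries that share their depth and their spread in reads outside exons. For Malat1 they were 2810008D09Rik (r = 0.98), Luc7l2 (0.98), which encodes a U1 snRNP-associated protein, and the clock gene Per3 (0.98). For Neat1 they were Per3 (0.97), Hapln2 (0.97) and Tab2 (0.97). Zcchc11, a uridylyltransferase gene, and the lincRNA 4933439C10Rik (0.99 each) were most like Meg3, followed by Pabpn1 (0.99), the nuclear poly(A)-binding protein. Pabpn1 (0.99), Celf3 (0.98) and Zcchc11 (0.98) were most like Mirg. Rian was closest to Smc5 (0.99), Ryr3 (0.99) and Cep110 (0.99), Miat to Miip (0.99), BC005561 (0.99) and Sfrs18 (0.99), and Snhg11 to Adamts20, Rbm26 and Chuk (0.99 each). Of these, Pabpn1 was at 89.4 CPM in shNT and 152 CPM in shRNA, and Sfrs18 at 99.0 and 217 CPM.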
